A study of Homo sapiens with 38 samples.

Results

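RNF43 and DKK1 are antagonists of Wnt signalling, and each was measured by 1 probe set (8016994 for RNF43 and 7927631 for DKK1), so that 2 of the 14488 probe sets in the table are described here. They were chosen by gene symbol, with earlier results of these data known. RNF43 had been noticed for its fall at 2 and 4 h in control cells. What drew attention to DKK1 is not known. Of all probe sets it alone (1 of 14488) was called with a higher response at 4 h in the knockdown arm, so it can have been picked for it. The response of control cells and the difference of DKK1 between the arms at 4 h are therefore given as descriptions with no test. Tests are given for the response of the knockdown arm and for the other hours. The 0 h arrays also enter the difference in response of DKK1 at 4 h. Its tests that use 0 h arrays are therefore not free of this choice. Since the reason for picking DKK1 is not known, its other tests cannot be said to be free of the choice either.

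The data are 38 Affymetrix arrays hybridised with RNA of A549, an established human lung adenocarcinoma line used as a model of alveolar epithelium. In the knockdown arm (19 arrays) a pool of siRNAs silenced ORMDL3, which encodes a protein of the endoplasmic reticulum that restrains sphingolipid synthesis, for 48 h. The control arm (19 arrays) is named only as control, and the sources used here do not give what those cells received. All cells were then deprived of serum for 24 h and given interleukin 1 beta (IL1B), an inflammatory cytokine, at 1 ng/ml for 2, 4, 8 or 10 h, while the 0 h arrays were untreated. Each arm and hour had 4 arrays, apart from control 8 h and knockdown 0 h with 3, and the 6 and 24 h collections that the labels mention are not analysed here. No untreated culture was followed beyond 0 h, so changes from 0 h hold both IL1B and the added time in culture, which cannot be told apart. The labels do not say whether replicates were separate cultures, so the p-values cover the spread among these arrays alone, which may be technical. All values are log2 levels, and changes are differences of log2 means ± their standard error in limma. A probe set is called where limma's adjusted p over the 14488 probe sets is under 0.05. Overlap of groups was not counted over all probe sets, so groups of RNF43 or DKK1 that did not overlap are a description.

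The Wnt pathway passes a signal from secreted Wnt ligands, through Frizzled receptors and the coreceptors LRP5 and LRP6, to beta-catenin, which enters the nucleus and works with TCF and LEF factors. RNF43 is a membrane ubiquitin ligase that removes Frizzled receptors from the cell surface, and R-spondins bound to LGR receptors hold it and its paralog ZNRF3 back. DKK1 is a secreted protein that binds LRP5 and LRP6 and keeps Wnt ligands from using them. Both genes are also known as targets of beta-catenin in other cells, where they act as negative feedback.

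In RefSeq (GRCh38.p14) RNF43 lies on chromosome 17, from 58352500 to 58417534, and DKK1 on chromosome 10, from 52314281 to 52317657. RefSeq's promoter windows, from 250 bases before to 50 after a start site, gave 2 entries for RNF43 and 1 for DKK1. Windows are printed, with matches in capitals, because both genes fell in the first hours of IL1B. For RNF43 the window with motif matches was picked, which lies inside the gene. The windows were searched on both strands for ATCAAAG (TCF and LEF), GGG followed by 2 free bases and TTTCC (NF-kB), TGANTCA (AP-1) and GGAATG (TEAD), none of which overlapped another match.
DKK1, chr10:52314031-52314330, plus strand: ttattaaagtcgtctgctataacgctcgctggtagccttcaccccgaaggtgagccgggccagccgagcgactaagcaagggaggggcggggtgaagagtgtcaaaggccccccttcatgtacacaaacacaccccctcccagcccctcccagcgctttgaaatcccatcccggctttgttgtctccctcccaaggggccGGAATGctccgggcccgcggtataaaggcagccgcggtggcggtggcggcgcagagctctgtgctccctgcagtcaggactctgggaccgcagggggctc
RNF43, chr17:58402672-58402971, minus strand: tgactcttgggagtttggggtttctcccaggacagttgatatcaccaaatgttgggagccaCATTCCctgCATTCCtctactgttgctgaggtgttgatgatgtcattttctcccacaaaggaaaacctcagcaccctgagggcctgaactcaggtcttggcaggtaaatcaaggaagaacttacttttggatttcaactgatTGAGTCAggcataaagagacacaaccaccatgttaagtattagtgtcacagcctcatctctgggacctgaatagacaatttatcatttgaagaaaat
The DKK1 window held 1 TEAD match, which starts 50 bases before the start site (position -50 in a count where 0 is the start site). The RNF43 window held 2 TEAD matches, on the opposite strand at -189 and -180, and 1 AP-1 match at -47. The other RNF43 window, chr17:58417485-58417784 on the minus strand, held none of the 4 motifs. That window spans the outer start of the gene at 58417534. TCF and LEF matches occurred in 2.62% of the 35116 windows of this length, NF-kB matches in 1.91%, AP-1 matches in 7.71% and TEAD matches in 14%. The TCF and LEF and the NF-kB letters were absent from all 3 windows, which says nothing about binding elsewhere.

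ORMDL3 was lower in each of the 19 knockdown arrays than in any control array, with 25.1% of the control level over the 5 hours. The arrays correlated at 0.987 to 0.996 within groups and no pair was identical. The epithelial markers CDH1, KRT8, KRT18 and KRT19 lay above the array median on all 38 arrays, while EPCAM lay above it on 0. Of 7 alveolar type II markers 2 were measured, ABCA3 above the median on 38 arrays and LAMP3 on 4. COL1A1 of fibroblasts and CDH5 of endothelium, each the 1 measured marker of its list, and CD14 and ITGAM of leukocytes were above the median on 0 arrays, whereas CD68, a lysosomal marker of macrophages, was above it on 38. Because these are bulk cultures, fewer cells that express a gene and less RNA per cell cannot be told apart.

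RNF43 dropped steeply within 2 h, was lowest at 4 h and had recovered in part by 8 h, in both arms. In control cells its level was 8.26, 8.39, 8.39 and 8.37 on the 4 arrays at 0 h. It was 6.25, 6.63, 6.68 and 6.46 at 2 h and 5.79, 6.03, 5.72 and 5.76 at 4 h. These 3 hours did not overlap: the highest array at 4 h was below the lowest at 2 h, and both were far below 0 h. At 8 h the 3 arrays stood at 7.54, 7.87 and 7.65. At 10 h the levels were 7.59, 7.81, 7.75 and 7.36. The arrays of 8 and 10 h overlapped each other, lay above all those of 2 and 4 h and stayed below all those of 0 h. Relative to 0 h this left 27.7% of the level at 2 h, 17.3% at 4 h, 63% at 8 h and 60.4% at 10 h. The log2 changes were -1.85 ± 0.13, -2.53 ± 0.13, -0.67 ± 0.14 and -0.73 ± 0.13. In these contrasts 20%, 37.9%, 34.3% and 34.7% of all probe sets were called, and RNF43's own values chose it here.

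The knockdown arm, which did not serve to choose RNF43, gave the same course. At 0 h its 3 arrays stood at 8.15, 8.35 and 8.23. The 2 h arrays stood at 6.28, 6.25, 6.48 and 6.39, and those of 4 h at 5.98, 6.21, 6.18 and 5.56. Here too every 4 h array was below every 2 h array and all 8 were below 0 h. The levels were 7.41, 7.82, 7.46 and 7.15 at 8 h and 7.65, 7.39, 7.63 and 7.29 at 10 h. Neither of these hours reached the range of 0 h, and they overlapped each other.

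All 4 changes of RNF43 from 0 h passed the test in the knockdown arm. RNF43 fell by 1.89 ± 0.14 at 2 h (limma adjusted p = 6.09e-13; 4 of 4 arrays below all of 0 h), which left 27.0% of the 0 h level. Of all probe sets 23.4% were called there, and 13.8% of all were called lower. At 4 h it fell by 2.26 ± 0.14 (adjusted p = 4.53e-15), to 20.9%, against 30.1% of probe sets called and 17.5% called lower. This was the second lowest change among all probe sets at 4 h and the fourth lowest at 2 h. These ranks are a description, since RNF43 had been noticed for its fall at the same hours in control cells. At 8 h it was still down by -0.78 ± 0.14 (adjusted p = 4.82e-05; 28.9% of probe sets called, 17.7% lower) and at 10 h by -0.75 ± 0.14 (adjusted p = 9.9e-05; 25.5% called, 13.8% lower). Between 4 and 8 h it rose by 1.48 ± 0.13, or 2.78-fold (adjusted p = 8.39e-11; 22.5% of probe sets called, 9.8% higher), the ninth highest rise of all. Between 8 and 10 h the difference was 0.03 ± 0.13 (adjusted p = 0.948), with a 95% interval from -0.23 to 0.29. The further drop from 2 to 4 h, -0.37 ± 0.13, missed the threshold (adjusted p = 0.0509; 14.6% of probe sets called). Whether it passed depended on the arrays and on the fit, including a replicate block, as the closing section gives. Without knockdown 4 h replicate 4 it was -0.23 (adjusted p = 0.242), and without all arrays numbered 4 it was -0.21 (0.266). It passed when any of 10 single arrays was left out, control 2 h replicate 1, 4 h replicate 2, 8 h replicate 2 and 10 h replicates 2 and 4, and knockdown 4 h replicates 2 and 3, 8 h replicates 2 and 4 and 10 h replicate 4. Among these the adjusted p was lowest without knockdown 4 h replicate 2 (-0.45, adjusted p = 0.0277).

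At its low point RNF43 was among the dimmer probe sets of the arrays. Its level was below the lower quartile of the array on 7 of 8 arrays at 2 h and on 8 of 8 at 4 h, and on 0 of the others. No detection values were used, so whether the 4 h signal was above background is not known, and its part in the size of the fall was not tested.

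DKK1 was a bright probe set that fell to a smaller extent, was lowest at 2 h instead of 4 h, and came back sooner. In control cells its levels at 0 h were 12.77, 12.89, 12.90 and 12.70. They were 11.66, 11.69, 11.75 and 11.63 at 2 h and 11.95, 11.82, 11.83 and 11.90 at 4 h. All arrays of 2 h were below all of 4 h, and both hours were below 0 h. The 8 h arrays read 12.70, 12.62 and 12.74 and overlapped 0 h at its lower end. The 10 h arrays read 12.51, 12.51, 12.51 and 12.56, below every array of 0 and 8 h. The level was thus 45.6% of 0 h at 2 h, 52.1% at 4 h, 91.4% at 8 h and 81.4% at 10 h. In log2 these changes were -1.13 ± 0.05, -0.94 ± 0.05, -0.13 ± 0.06 and -0.30 ± 0.05.

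In the knockdown arm DKK1 was lowest at 2 h as well. Its levels were 12.95, 12.99 and 12.87 at 0 h. At 2 h they were 11.75, 11.90, 11.79 and 11.85, and at 4 h 12.52, 12.38, 12.34 and 12.34. The 2 h arrays were the lowest, and the 4 h arrays lay between them and 0 h without overlap. Levels of 12.81, 12.81, 12.76 and 12.83 followed at 8 h, and 12.71, 12.82, 12.82 and 12.75 at 10 h. Both late hours lay just below the lowest array of 0 h and overlapped each other.

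DKK1 fell by 1.11 ± 0.06 at 2 h in the knockdown arm (adjusted p = 5.03e-17; 4 of 4 arrays below all of 0 h), to 46.2% of its 0 h level. In that contrast 23.4% of all probe sets were called and 13.8% called lower. At 4 h DKK1 was down by -0.54 ± 0.06, at 68.7%. This is given without a test, because the 4 h arrays enter the difference between the arms for which DKK1 can have been picked. The 0 h arrays enter that difference too, so the tests at 2, 8 and 10 h are not free of the choice. The 8 h change was -0.13 ± 0.06 and missed the threshold (adjusted p = 0.0837; 28.9% of probe sets called, 17.7% lower). The 10 h change was -0.16 ± 0.06 (adjusted p = 0.0374; 25.5% of probe sets called, 13.8% lower), at 89.4%, and it depended on single arrays. The call was lost without knockdown 0 h replicate 1 (-0.16, adjusted p = 0.102), 0 h replicate 2 (-0.13, 0.171), 10 h replicate 1 (-0.14, 0.105) or 10 h replicate 4 (-0.15, 0.0792). It was also lost without all arrays numbered 1 (-0.14, adjusted p = 0.247), 2 (-0.15, 0.199), 3 (-0.18, 0.058) or 4 (-0.19, 0.0639). The differences of the 4 h mean from 2 h, 0.57 ± 0.05, and of the 8 h mean from 4 h, 0.41 ± 0.05, are given without a test for the same reason. Between 8 and 10 h the difference was -0.03 ± 0.05 (adjusted p = 0.868; 2.33% of probe sets called), with an interval from -0.14 to 0.08.

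**Figure D1:**
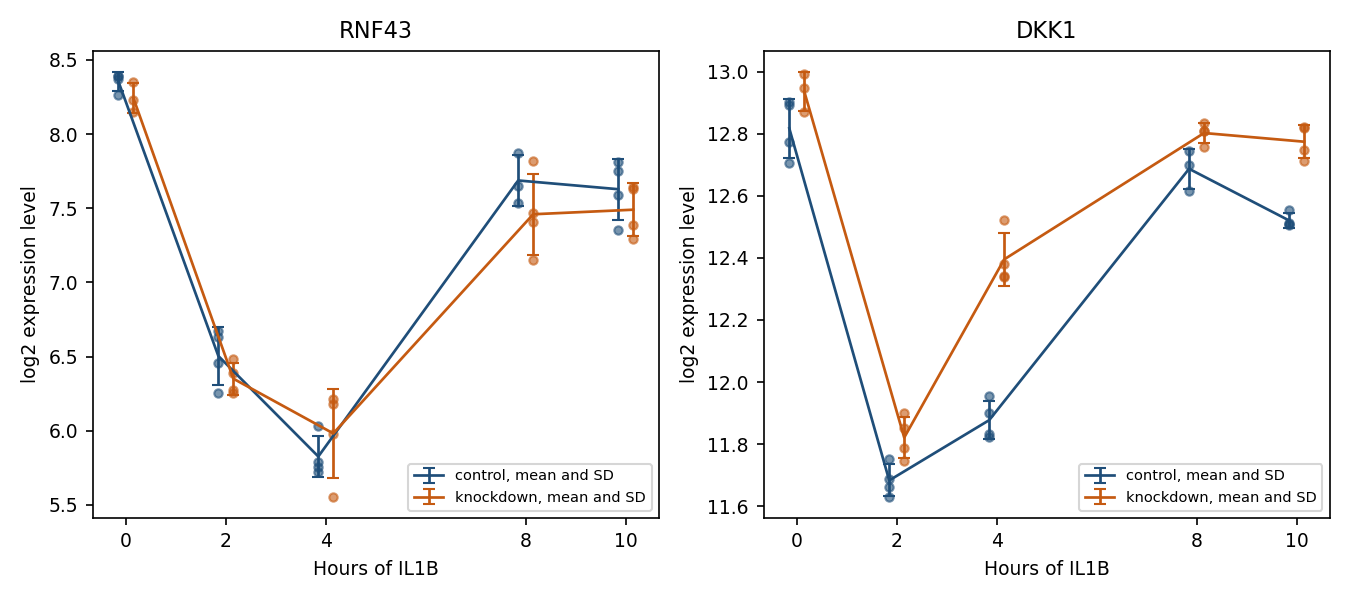
The plot gives the log2 level of RNF43 (left) and DKK1 (right) on each of the 38 arrays against hours of IL1B, with points for arrays and lines for group means with SD, in control (blue) and knockdown cells (orange). RNF43 is lowest at 4 h in both arms (5.83 and 5.98), while DKK1 is lowest at 2 h (11.68 and 11.82) and differs most between the arms at 4 h (11.88 and 12.40).

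The courses of both genes were alike across groups, with Pearson's r = 0.82 and Spearman's rho = 0.77 over the 10 group means and 0.79 and 0.73 over the 38 arrays. These figures are descriptions, since both genes were read from the same arrays and the 0 h level shapes both courses. From 2 to 4 h they moved apart: RNF43 went on downwards in control cells (-0.68 ± 0.13) while DKK1 turned upwards (0.19 ± 0.05). At 10 h RNF43 kept a deficit in both arms, at 60.4% and 59.4% of 0 h, whereas DKK1 was back to 81.4% and 89.4%.

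Knockdown of ORMDL3 left RNF43 without a called difference at any hour. Knockdown minus control was -0.11 ± 0.14 at 0 h (adjusted p = 0.782), -0.15 ± 0.13 at 2 h (0.491), 0.16 ± 0.13 at 4 h (0.72), -0.23 ± 0.14 at 8 h (0.447) and -0.14 ± 0.13 at 10 h (0.729). The arms overlapped at every one of the 5 hours. Over the 5 hours the difference was -0.10 ± 0.06 (adjusted p = 0.273; 23% of probe sets called), with an interval from -0.22 to 0.03, so that differences within about these bounds could not be seen. The IL1B response of RNF43 differed between the arms by -0.04 ± 0.19 at 2 h and 0.27 ± 0.19 at 4 h, and by -0.12 ± 0.20 and -0.03 ± 0.19 at 8 and 10 h, none of them called (joint F over 4 hours, adjusted p = 0.823; 0.166% of probe sets called).

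DKK1 was higher in knockdown cells, most of all at 4 h. At 4 h the 4 knockdown arrays were at 12.34 to 12.52 and the 4 control arrays at 11.82 to 11.95, a gap of 0.52 ± 0.05 or 1.43-fold, given without a test. At that hour 1.84% of probe sets were called and 1.11% called higher. At 10 h DKK1 was higher by 0.25 ± 0.05, or 1.19-fold (adjusted p = 0.00714; 4 of 4 arrays above all controls). There 2.28% of probe sets were called and 1.09% called higher. The call of DKK1 was lost without all arrays numbered 1 (0.27, adjusted p = 0.0776), 2 (0.24, 0.0881) or 3 (0.23, 0.0966). It was also lost when only the 8 arrays compared were fitted (adjusted p = 0.13). What drew attention to DKK1 is not known, so the 10 h test cannot be called free of its choice. The differences at the other hours were 0.12 ± 0.06 at 0 h (adjusted p = 0.33), 0.14 ± 0.05 at 2 h (0.116) and 0.12 ± 0.06 at 8 h (0.33), all in the same direction and none called. Of all probe sets 3.31%, 6.18% and 2.88% were called at these hours, and 2.33%, 3.11% and 1.62% were called higher. The arms overlapped at 0 and 2 h and did not at 8 h, where the highest control array was 12.74 and the lowest knockdown array 12.76. How many other probe sets showed no overlap was not counted. Over 0, 2, 8 and 10 h together DKK1 was higher by 0.16 ± 0.03, or 1.11-fold (adjusted p = 1.14e-04). There 18.1% of probe sets were called and 8.7% called higher. The mean was taken after the data were seen so as to leave out 4 h. It still holds the 0 h arrays, which enter the difference in response at 4 h. The same mean for RNF43 was -0.16 ± 0.07, with an interval from -0.29 to -0.02, and was not called (adjusted p = 0.105).

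The response of DKK1 to IL1B was less deep in the knockdown arm at 4 h, by 0.40 ± 0.08, given as a description. At 2 h the responses differed by 0.02 ± 0.08, with an interval from -0.14 to 0.18, and at 8 h by 0.00 ± 0.08, from -0.17 to 0.16. At 10 h the difference was 0.13 ± 0.08, and none of these 3 hours was called (adjusted p = 0.929, 0.992 and 0.89). These contrasts share the 0 h arrays with the 4 h difference. Few probe sets passed in such contrasts: 0.0276% at 2 h, 0.069% at 4 h, 0.228% at 8 h and 0.0828% at 10 h.

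**Figure D2:**
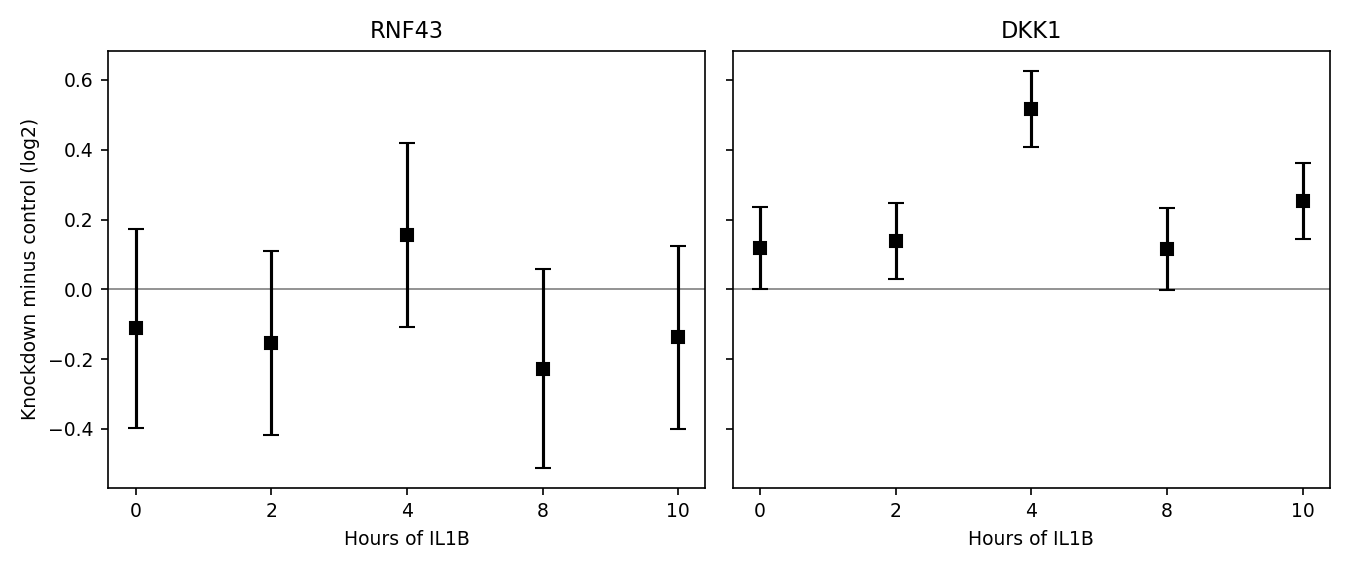
Squares give the log2 difference of knockdown minus control for RNF43 (left) and DKK1 (right) at each hour of IL1B, with 95% intervals from limma's model on 1 common axis. The intervals of RNF43 cross 0 at all 5 hours, while DKK1 is above 0 most at 4 h (0.52) and at 10 h (0.25).

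Beside RNF43 and DKK1, 88 of 113 listed Wnt pathway genes were measured, and the lists were drawn up with earlier results known. As the mean of 4 IL1B hours in the knockdown arm 18 of the 88 rose and 23 fell, or 46.6% called, while 31.1% of all probe sets were called. Their median change was -0.01, beside -0.04 over all probe sets. The change of RNF43 (-1.42 ± 0.12) was lower than that of any of the 88, and the change of DKK1 was -0.49 ± 0.05. RNF43 had been noticed for its fall in control cells, so its place below the 88 was favoured in advance and is a description.

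The list of Wnt receptors holds the Frizzled receptors, which RNF43 removes, LRP5 and LRP6, which DKK1 binds, and others. Of its 16 genes 8 fell and 1 rose, with a median of -0.22. Of all probe sets 31.1% were called in this contrast and 19% were called lower. The Frizzled receptors FZD2 (-0.60 ± 0.06, adjusted p = 3.81e-10) and FZD5 (-0.39 ± 0.05, adjusted p = 6.87e-07) and the Wnt receptor tyrosine kinase ROR1 (-0.40 ± 0.09, adjusted p = 6.52e-04) fell most. FZD2 shared the 4 h low point of RNF43, with -0.69 ± 0.07 at 2 h, -1.58 ± 0.07 at 4 h and -0.11 ± 0.07 at 8 h. The coreceptor LRP6, to which DKK1 binds, fell by 0.27 ± 0.07 (adjusted p = 0.00316), and LRP5 fell by 0.23 ± 0.08 (adjusted p = 0.0269). These means hide the hours: LRP6 was at -0.13 ± 0.09 at 2 h and lowest at 8 h (-0.55 ± 0.09). LRP5 was at 0.06 ± 0.10 at 2 h and also lowest at 8 h (-0.43 ± 0.10). In the R-spondin branch, which controls RNF43, 2 of 6 genes fell and 1 rose. LGR4, an R-spondin receptor, fell by 0.55 ± 0.06 (adjusted p = 1.01e-09). LGR6, another, fell by 0.45 ± 0.13 (adjusted p = 0.00892), with 0.05 ± 0.16 at 2 h and -0.86 ± 0.16 at 8 h. The ligand RSPO3 rose by 0.21 ± 0.04 (adjusted p = 4.73e-04). ZNRF3, the paralog of RNF43, stood at -0.11 ± 0.07 (adjusted p = 0.233) and fell at 4 h by 0.28 ± 0.09 (adjusted p = 0.0114). In control cells the mean change of ZNRF3 was -0.26 ± 0.06, given as a description.

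Among 8 measured secreted and membrane antagonists 2 fell and 1 rose, or 37.5% called, close to the 31.1% of all probe sets. SFRP4, which binds Wnt ligands, fell by 0.92 ± 0.09 (adjusted p = 7.04e-10) and went lower late, with -0.35 ± 0.11 at 2 h and -1.39 ± 0.11 at 10 h, unlike RNF43 and DKK1. DKK3, the 1 other DKK gene measured, fell by 0.25 ± 0.07 (adjusted p = 0.00298), and TPBG, a membrane inhibitor of the pathway, rose by 0.36 ± 0.09 (adjusted p = 0.00137). KREMEN1, a receptor for DKK proteins, was at -0.05 ± 0.06 (adjusted p = 0.592), and in control cells at -0.14 ± 0.06, given as a description. Of 13 ligand and secretion genes 1 rose, WNT7B (0.55 ± 0.11, adjusted p = 2.55e-04), and 1 fell, WNT9A (-0.25 ± 0.10, adjusted p = 0.0482).

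Inside the cell the changes went both ways. Of 17 cytoplasmic genes 4 rose and 2 fell, or 35.3% called, again close to the 31.1%. CTNNB1, which encodes beta-catenin, rose by 0.34 ± 0.08 (adjusted p = 7.79e-04). Its feedback inhibitor NKD1 fell by 0.49 ± 0.13 (adjusted p = 0.00455), most at 4 h (-1.03 ± 0.16). APC of the destruction complex fell by 0.35 ± 0.09 (adjusted p = 0.00206). Of 12 nuclear genes 3 rose and 3 fell, including the corepressor TLE3 (0.82 ± 0.09, adjusted p = 1.97e-08) and the beta-catenin partners BCL9L (0.57 ± 0.08, adjusted p = 6.17e-07) and BCL9 (-0.45 ± 0.07, adjusted p = 9.95e-06). Of 16 genes reported as beta-catenin targets 7 rose and 5 fell. AXIN2, the target most often used as a readout, fell by 0.48 ± 0.07 (adjusted p = 4.31e-06) and by similar amounts at each hour, from -0.43 ± 0.09 at 8 h to -0.56 ± 0.09 at 10 h. The receptor EPHB3 fell by 0.88 ± 0.10 (adjusted p = 6.93e-09), whereas the protease MMP7 rose by 0.80 ± 0.11 (adjusted p = 2.91e-07) and the urokinase receptor PLAUR by 0.89 ± 0.09 (adjusted p = 2.03e-09).

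**Figure D3:**
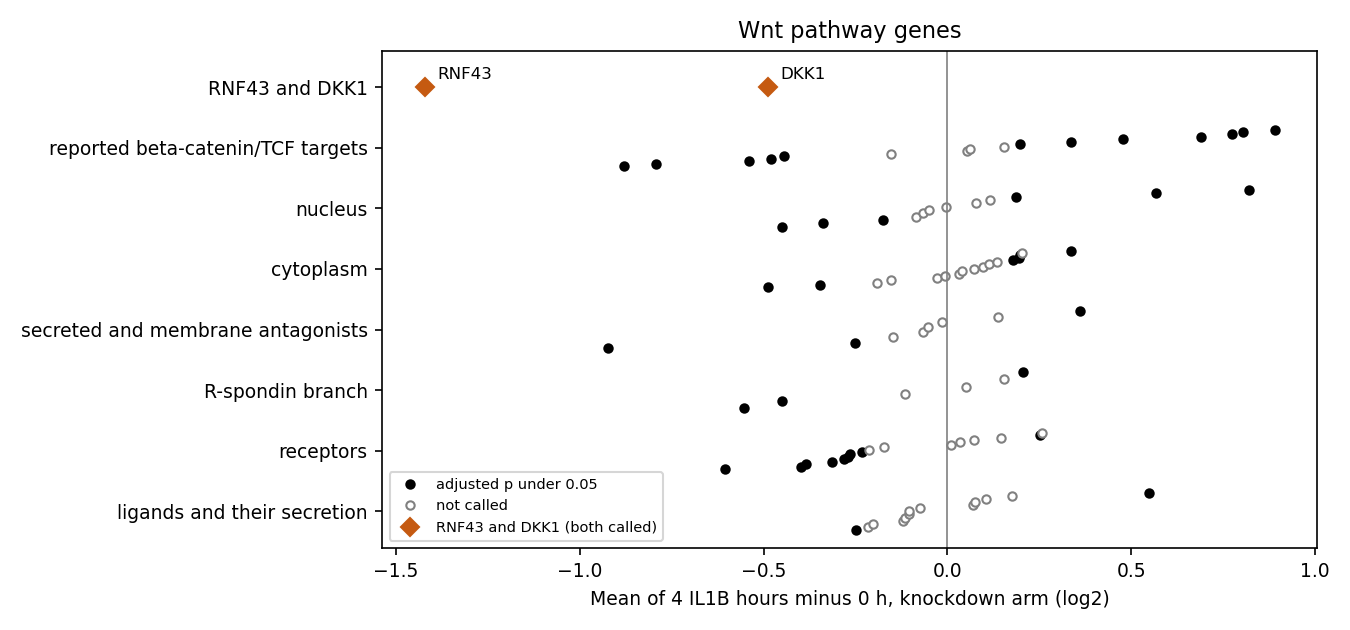
Each circle is 1 of 88 Wnt pathway genes, placed by its log2 change as the mean of 4 IL1B hours minus 0 h in the knockdown arm (filled where limma's adjusted p is under 0.05), in rows by role, with orange diamonds for RNF43 and DKK1. RNF43, which had been noticed for its fall in control cells, lies to the left of all other genes at -1.42. The receptor row has 8 filled circles left of 0 and 1 right of it.

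For knockdown over the 5 hours 12 of the 88 genes were higher and 8 lower, or 22.7% called, close to the 23% of all probe sets, with 10.9% called higher. KREMEN1 was higher by 0.14 ± 0.03 (adjusted p = 0.00197), beside 0.23 ± 0.02 for DKK1, a mean that holds its 4 h value. The antagonist SFRP1 was higher by 0.33 ± 0.04 (adjusted p = 4.03e-08) and SFRP4 lower, at -0.41 ± 0.05 (adjusted p = 7.6e-08). LRP5 was lower, at -0.18 ± 0.04 (adjusted p = 0.00219), and LRP6 stood at -0.10 ± 0.04 (adjusted p = 0.053). AXIN2 was lower by a small amount, -0.11 ± 0.04 (adjusted p = 0.0344). Among reported target genes, the receptor TNFRSF19 was higher by 0.36 ± 0.05 (adjusted p = 4.7e-06) and the growth factor BMP4 lower, at -0.36 ± 0.08 (adjusted p = 5.46e-04). The count of 20 called genes became 12 without the arrays numbered 1 and 12 without those numbered 3.

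The genes whose courses were most like those of RNF43 and DKK1 were taken from 1194 probe sets that had 1 symbol and a range of at least 1 over the 10 group means. The homeobox gene LHX4 was nearest to RNF43 (r = 0.99 over 10 group means), with changes of -0.87 at 2 h, -1.22 at 4 h and -0.28 at 10 h in control cells. PRICKLE1, a component of planar cell polarity, the branch of Wnt signalling without beta-catenin, came next (r = 0.98), with -1.04, -1.35 and -0.16 in control cells and -1.40, -1.58 and -0.43 in knockdown cells. MBLAC2 and the nuclear receptor NR2F1 followed with r = 0.98 and 0.97. The mirror image of RNF43 was INHBA, a subunit of activin (r = -0.99), which rose by 3.42 at 4 h in control cells and stood 0.88 above 0 h at 10 h, followed by the ubiquitin ligase RNF144B (r = -0.99). In control cells at 0 h LHX4 (6.34), RNF144B (6.43) and INHBA (4.80) stood below the arrays' lower quartiles, which ran from 6.52 to 6.70. MBLAC2 (6.55) stood within that span, while PRICKLE1 (8.46) and NR2F1 (8.34) were brighter. Whether the dim signals were above background is not known.

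DKK1 had other neighbours. SPRY2, a feedback inhibitor of receptor tyrosine kinase signalling, was nearest (r = 0.97), with -1.08 at 2 h, -0.80 at 4 h and 0.01 at 10 h in control cells. PPP1R3B, a regulator of glycogen synthesis, was next (r = 0.97), and its changes at 4 h, -0.91 in control and -0.48 in knockdown cells, stood beside -0.94 and -0.54 for DKK1. The interleukin 6 receptor IL6R (r = 0.96) and the lipid droplet protein HILPDA (r = 0.96) also dipped at 2 h, by -1.53 and -1.76 in control cells. Coagulation factor F3 (r = -0.98) and ICAM4 (r = -0.97) ran opposite to DKK1, with rises of 1.55 and 2.44 at 2 h. Both were dim in control cells at 0 h, at 5.85 and 4.95, below the arrays' lower quartiles. With 10 group means, read from the same arrays for every gene, such correlations describe the shape of a course and carry no test.

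**Figure D4:**
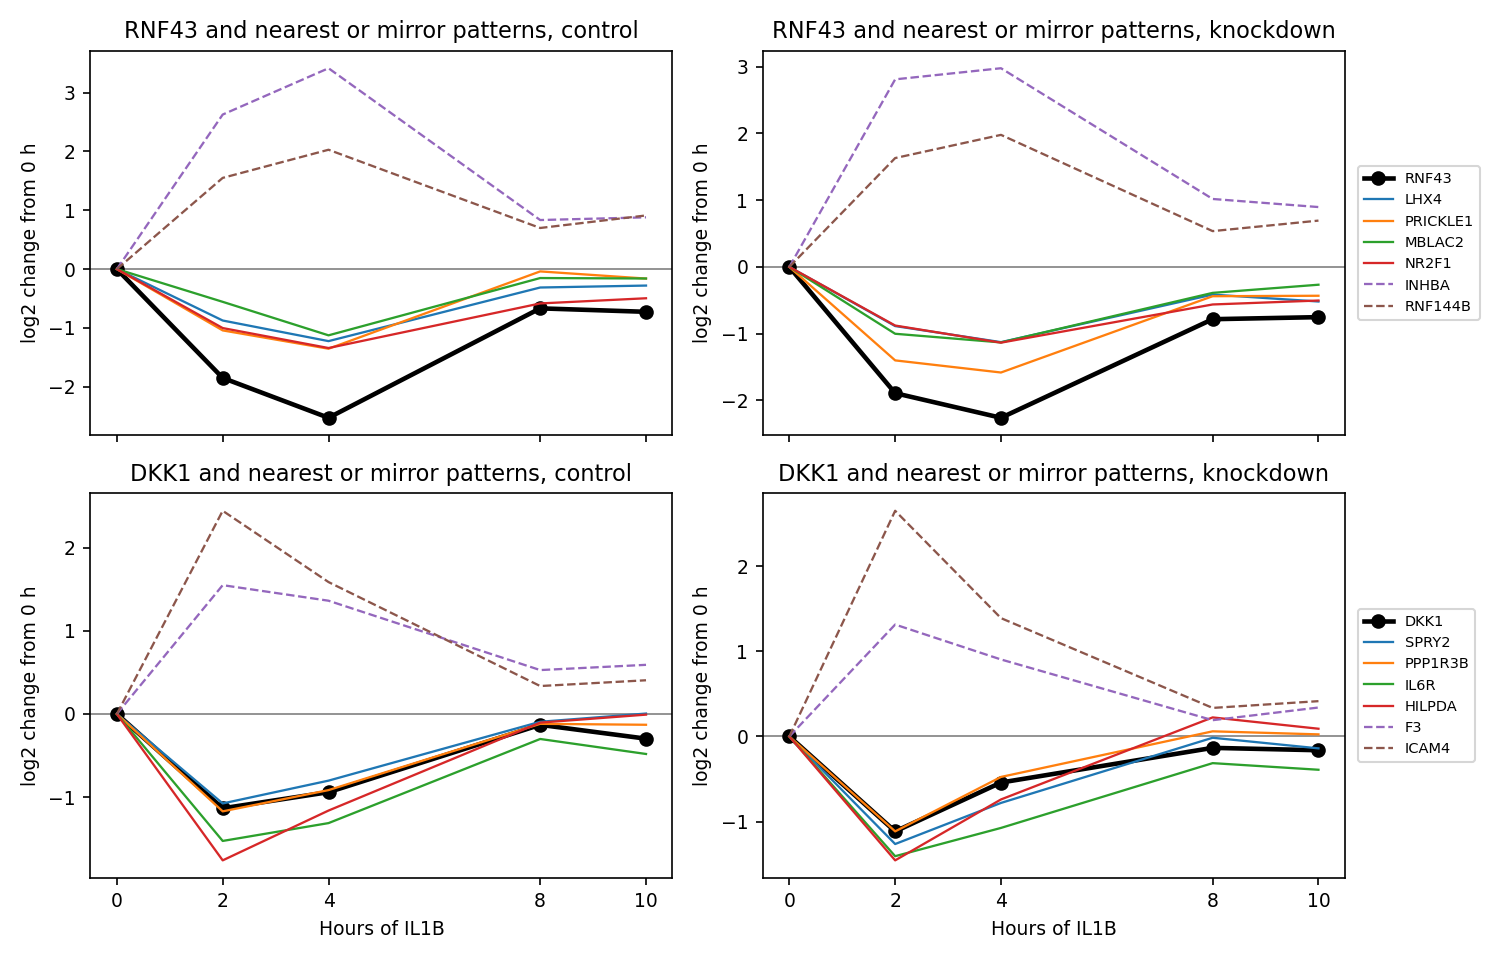
Lines give the log2 change from 0 h against hours of IL1B for RNF43 (top) and DKK1 (bottom, both in black), their 4 most alike genes (solid) and their 2 most opposite genes (dashed), in control (left) and knockdown cells (right). RNF43 and its neighbours are lowest at 4 h and INHBA peaks there (3.42 in control cells), while DKK1 and its neighbours are lowest at 2 h.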

How the data were processed

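Each array had 1 log2 value per probe set in the table the authors deposited. Per the submitters' processing notes, RMA, Affymetrix Power Tools, hg19 and limma 3.22.7 were used, in roles that are not stated. The sources used here do not say how the 14488 probe sets were selected. No further normalization or filter was applied, and array medians ran from 8.02 to 8.19. GEO's platform annotation named the genes: 1 symbol stood beside 12132 probe sets, several beside 628 and none beside 1728, and 12121 matched a current RefSeq gene record. In R 4.3.3, limma 3.58.1 fitted 1 mean for each of the 10 groups to all 38 arrays, with eBayes without trend and Benjamini-Hochberg adjustment over all probe sets for each contrast. The fit was tested on simulated data. Members and lists were chosen with earlier results of these data known. The named genes were RNF43, DKK1, ORMDL3, up to 3 called Wnt genes per list with the largest IL1B change in the knockdown arm and up to 3 with the largest knockdown mean, ZNRF3, AXIN2, LGR4, LRP6, KREMEN1 and the DKK genes, and the 4 genes most and 2 least correlated with each member. Not all of them are printed. Values of DKK1 that rest on its 4 h arrays are given without a test. For a gene with several probe sets, the brightest was used in the lists. Precision is limited by the number of arrays. The alternatives were other normalizations, a filter on dim probe sets, a variance trend, replicate blocks, array weights, smaller fits and single arrays left out.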

Additional observations from a re-analysis of the deposited data

Results flagged for a closer look

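DKK1 stood out at 4 h, where its IL1B response in the knockdown arm was higher than in the control arm by 0.40 on the log2 scale, a change of -0.54 against -0.94. It is listed because the arms differed in their response, and it is given without a test, since DKK1 can have been chosen for this difference. Control 10 h replicate 4 of DKK1, at 12.56, lay apart from the other 3 arrays of its group, whose nearest was 12.51, by 0.858 of the group's range. That range is narrow, with an SD of 0.02, and about 1 group in 20 is expected to be marked in this way.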

How the results depend on the processing

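The 31 tested results on RNF43 and DKK1 gave 1528 values under the alternatives, of which 1497 kept their side of the threshold, 14 lost a call, 17 gained one and 0 changed direction while called. The 24 results described without a test gave 1191 values, of which 1188 kept their sign. The drop of RNF43 from 2 to 4 h in the knockdown arm (-0.37, adjusted p = 0.0509) gained a call with array medians subtracted (-0.38, 0.0441), the robust variance trend (-0.37, 0.049) and the replicate number as a fixed (-0.37, 0.0115) or random block (-0.37, 0.018), and was -0.48 to -0.21 with arrays left out. The replicate block changed no other call of RNF43 or DKK1. The deviations of same-numbered arrays correlated above 0.1 in 37 of 45 pairs and best with their own number in 32, a hint from the data that the numbers go together. The labels do not say what a number marks and 8 pairs fell short, so the fit reported has no block. The change of DKK1 at 10 h in the knockdown arm lost its call with medians subtracted (-0.15, adjusted p = 0.0617) and in a fit of the groups compared alone (-0.16, 0.179), and was -0.20 to -0.13 with arrays left out. At 8 h it gained one with the robust trend (-0.13, 0.0486) and with array weights (-0.17, 0.0058). The knockdown difference of DKK1 at 10 h was 0.25 with adjusted p = 0.13 in the fit of the groups compared alone, and 0.23 to 0.27 with arrays left out. The causes of these changes were not tested.

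Without the probe sets below the median level, RNF43 itself was left out, and the counts called in the knockdown arm, 3392, 4354, 4192 and 3689 at 2, 4, 8 and 10 h, 4501 for their mean and 3332 for the knockdown mean, became 1963, 2629, 2393, 2280, 2651 and 2178, since fewer probe sets were tested. With array weights 5253 were called at 2 h and 6825 for the mean. Without the arrays of 1 number the ranges were 1726 to 3683, 3036 to 3905, 2694 to 3947, 2228 to 3154, 2786 to 4146 and 2131 to 2668, lowest without number 1 at 2, 8 and 10 h and for the mean, and without number 3 for the knockdown mean. The Wnt genes called ranged from 19 (without number 1) to 33 at 2 h, against 35, and from 12 to 15 for the knockdown mean, against 20.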
